A study of Mus musculus with 12 samples.

Results

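The 9 genes described here are 5 ligands that neurons and other resident cells release and 4 receptors that macrophages, microglia, monocytes and other cells carry: Cx3cl1 and its receptor Cx3cr1, Csf1 and Il34 with their shared receptor Csf1r, Ccl2 and its receptor Ccr2, and Cxcl12 and its receptor Cxcr4. They were taken by gene symbol from the deposited table of protein-coding transcripts, with every transcript listed under each symbol. This gave 9 of 21981 genes, counted by gene identifier, and 26 of 57109 transcripts. The 12 libraries came from wild-type C57BL/6 mice of 8 weeks, 3 libraries in each of 4 groups. STG and CTG are trigeminal ganglia (TG), where sensory neurons of the face and jaw have their cell bodies. SSp5C and CSp5C come from Sp5C, the caudal spinal trigeminal nucleus of the brainstem, in which the pain fibres of those neurons end. The series title concerns mice with chronic inflammatory temporomandibular joint pain, but the labels do not explain the letters S and C and name no agent, so the groups are called by their labels and the difference is always given as C minus S. The labels do not say whether replicates were separate animals, so p-values rest on a spread among samples that may be technical.

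Fractalkine, the product of Cx3cl1, is a chemokine made mainly by neurons. It sits in the membrane on a stalk until proteases cut it loose, and its receptor is found mainly on microglia, macrophages and monocytes. Colony stimulating factor 1 and interleukin 34 bind the same receptor, CSF1R, on which the survival of microglia and most tissue macrophages depends. Sensory neurons are known to induce Csf1 after nerve injury. CCL2 draws monocytes that carry CCR2 out of the blood, and CXCL12, acting through CXCR4, retains and guides blood cells and also neurons and glia.

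The transcripts of Cxcl12 and Csf1 make different proteins, and part of what follows turns on them, so the stretches at which they part are shown. All coordinates are GRCm38 from the GENCODE M21 annotation, in which all 26 transcripts were found. Cxcl12 lies on the plus strand at chr6:117168535-117181367. Its 3 transcripts share the first 267 coding bases and then end differently: alpha (Cxcl12-202) has 89 amino acids, beta (Cxcl12-203) has 93 and gamma (Cxcl12-201) has 119. Each stretch starts at position 117173550 of chromosome 6, runs 5′ to 3′ to the stop codon, and has in capitals the coding bases that the other transcripts do not share. The gamma stretch crosses an intron and ends at position 117176179. The beta stretch ends at 117178598 and the alpha stretch at 117173582.
Cxcl12-202: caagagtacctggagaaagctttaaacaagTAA
Cxcl12-203: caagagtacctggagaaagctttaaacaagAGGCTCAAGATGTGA
Cxcl12-201: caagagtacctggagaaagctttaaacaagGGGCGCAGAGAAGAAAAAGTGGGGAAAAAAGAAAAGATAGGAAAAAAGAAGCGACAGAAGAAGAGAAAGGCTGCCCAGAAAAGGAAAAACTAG

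Csf1 lies on the minus strand at chr3:107741048-107760469. Csf1-201, with 552 amino acids, uses the whole of exon 6, 1016 bases, which encodes the sites at which the secreted forms are cut free. Csf1-202, with 257 amino acids, keeps only the last 131 bases of that exon, and its product is known as the form that stays at the cell surface. The last 30 bases of exon 5 are in lower case and the first bases of exon 6 in capitals.
Csf1-201: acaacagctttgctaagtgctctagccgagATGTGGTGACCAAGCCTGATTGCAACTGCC
Csf1-202: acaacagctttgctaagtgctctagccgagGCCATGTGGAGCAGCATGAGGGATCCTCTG

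The other members lie at chr8:94772009-94782427 (Cx3cl1, plus strand), chr9:119901616-120069879 (Cx3cr1, minus strand), chr8:110741829-110805924 (Il34, minus strand), chr18:61100598-61132149 (Csf1r, plus strand), chr11:82035571-82037453 (Ccl2, plus strand), chr9:124101950-124113557 (Ccr2, plus strand) and chr1:128588199-128592293 (Cxcr4, minus strand). The span of Cx3cr1 overlaps 9 other genes, the spans of Il34 and Csf1r each overlap 2 and that of Ccl2 overlaps 1. The kit kept strand, but the strand setting of the counting is not given in the sources used here, so reads of these 4 genes and of partners on the other strand may not be told apart.

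All values are FPKM, fragments scaled to transcript length and library size, as the authors gave them, and a gene's level is the sum over its transcripts. The table holds no counts. From the smallest steps between low values, 1 FPKM of a 1 kb transcript stands for about 22.6 to 31.8 fragments, depending on the library. Across genes, the correlation of 2 libraries was 0.967 to 0.989 within a tissue and 0.765 to 0.803 between TG and Sp5C. The markers went with the labelled tissues: the summed level of 10 sensory neuron markers was 1656 to 1880 in TG and 165 to 260 in Sp5C, and that of 8 astrocyte markers was 98.9 to 136 in TG and 1084 to 1410 in Sp5C. In all, 3 libraries stood apart in markers of other tissue. CTG replicates 1 and 3 had 935 and 308 for 12 markers of neutrophils and bone marrow, against 4.17 to 36.0 in the other 10 libraries. STG replicate 1 had 2865 for 7 pituitary hormone genes, against 0.664 to 51.6 in the others. The main results of the members that involve these libraries are also given without them, singly or together. Tests of the marker and pathway lists are given only with them included.

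Fractalkine showed the widest gap between the tissues of all the members. Cx3cl1 was at 3.88, 2.19 and 2.71 FPKM in STG, 3.33, 2.14 and 2.33 in CTG, 48.5, 52.9 and 50.9 in SSp5C, and 45.7, 51.8 and 49.99 in CSp5C. Every Sp5C library was above every TG library. The mean was 49.96 ± 2.59 (SD, n = 6) in Sp5C and 2.76 ± 0.704 (SD, n = 6) in TG, a ratio of 18.1, and the difference of log2(FPKM + 1), TG minus Sp5C, was -3.78 ± 0.11 (SE; 95% interval -4.01 to -3.54; limma, adjusted p = 6.78e-11). Fractalkine was the highest of the 9 members in Sp5C and the sixth of the 9 in the mean of TG. Nearly all of it was Cx3cl1-201, the transcript that encodes the whole protein, at 2.65 ± 0.569 in TG and 49.0 ± 2.35 in Sp5C (n = 6 each). The summed level of 10 central neuron markers was 567 to 721 in TG and 1376 to 1539 in Sp5C. Of these, 2 were higher in TG, 7 lower and 1 did not pass, where 36.2% of all genes were higher and 35% lower. Snap25 was the largest part of the sum, at 396 ± 48.8 in TG and 970 ± 40.8 in Sp5C. Gad1 was at 0.248 ± 0.0965 in TG and 70.3 ± 4.31 in Sp5C, while Tac1 was at 133 ± 14.4 and 24.4 ± 5.56. Slc17a6 was at 55.9 ± 2.74 and 55.6 ± 3.64, and Rbfox3 at 49.5 ± 1.42 and 43.4 ± 2.31, so not all of the list was particular to Sp5C. In bulk tissue, fewer cells of a type and less RNA per cell cannot be told apart.

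The fractalkine receptor overlapped between the tissues and did not pass. Cx3cr1 was at 6.07, 5.22 and 1.54 FPKM in STG, 0.966, 0.985 and 0.615 in CTG, 1.85, 1.85 and 1.66 in SSp5C, and 2.53, 1.32 and 0.801 in CSp5C. The spread within TG was the widest of any member relative to its mean, 2.57 ± 2.42 (SD, n = 6). Of the members tested between the tissues, Cx3cr1 alone did not pass (0.19 ± 0.25, 95% interval -0.36 to 0.73, adjusted p = 0.511). The ratio of ligand to receptor was 0.420 to 3.79 in TG and 18.03 to 62.4 in Sp5C, so the 2 ranges did not meet. Without STG replicate 3 the tissue difference of Cx3cr1 was 0.42 with an adjusted p of 0.0336, and among C libraries alone it was -0.41 with an adjusted p of 0.205.

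**Figure D1:**
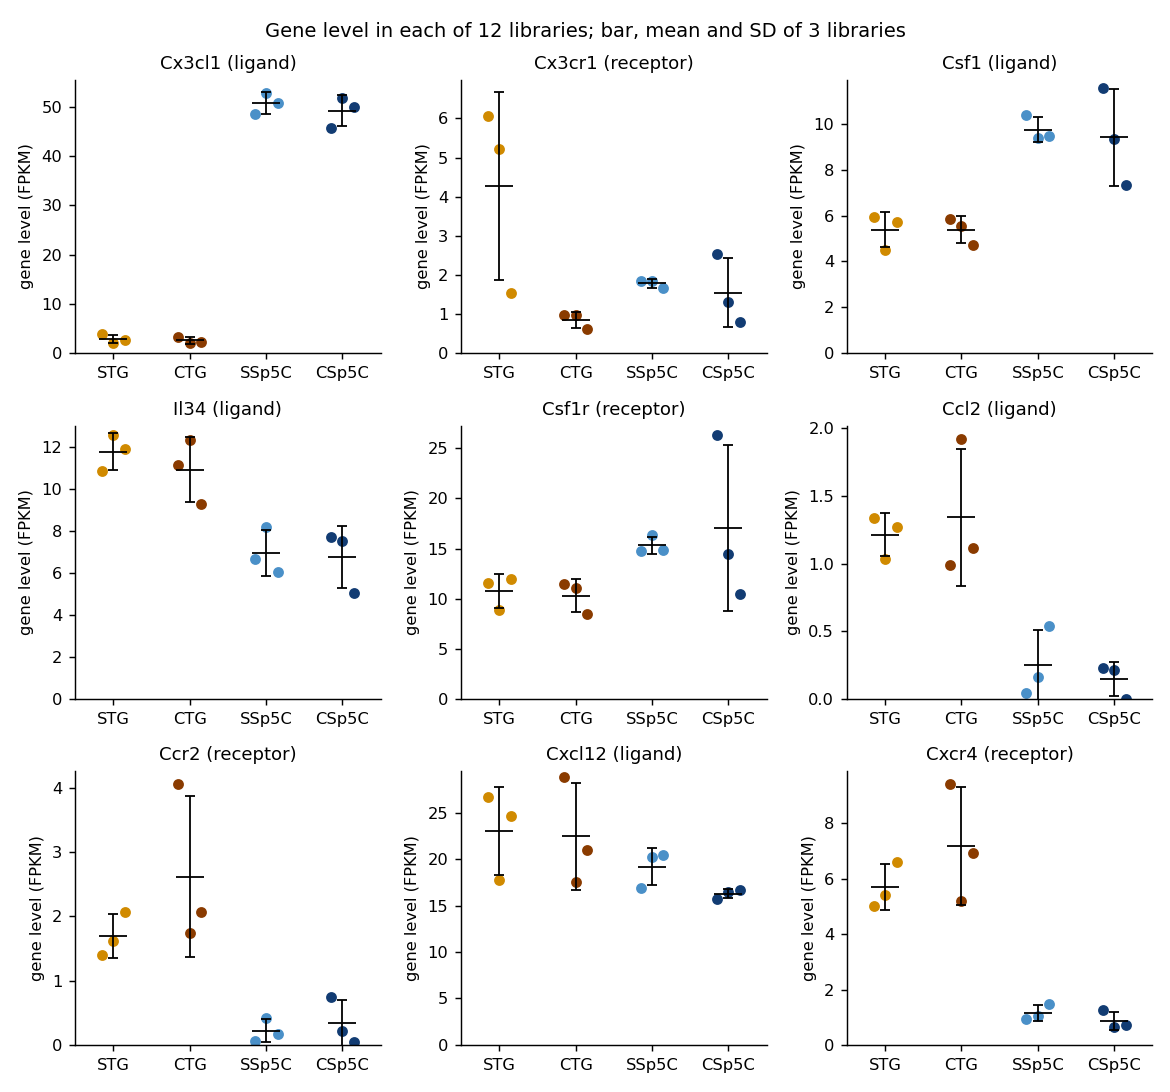
Gene level in FPKM (vertical axis, from 0) of the 9 members in the 4 groups (horizontal axis). Each point is 1 library, the horizontal bar the mean and the whisker the SD of 3 libraries, with whiskers that reach below 0 ending at the axis. Cx3cl1 lies between 45.7 and 52.9 in Sp5C and between 2.14 and 3.88 in TG.

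The ligands of CSF1R differed between the tissues in opposite directions, Csf1 being lower and Il34 higher in TG. Csf1 was at 5.92, 4.52 and 5.72 FPKM in STG, 5.85, 5.56 and 4.74 in CTG, 10.4, 9.39 and 9.45 in SSp5C, and 11.6, 9.36 and 7.34 in CSp5C. All 6 Sp5C libraries were above all 6 TG libraries, with a difference of -0.72 ± 0.10 (95% interval -0.94 to -0.51, adjusted p = 4.43e-05). Il34 was at 10.9, 12.6 and 11.9 FPKM in STG, 11.1, 12.4 and 9.29 in CTG, 6.67, 8.19 and 6.08 in SSp5C, and 7.72, 7.53 and 5.07 in CSp5C. Here all 6 TG libraries were above all 6 Sp5C libraries (0.66 ± 0.11, 95% interval 0.42 to 0.89, adjusted p = 0.000175).

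Within each library Il34 exceeded Csf1 in TG and Csf1 exceeded Il34 in Sp5C. The ratio of Csf1 to Il34 was 0.359 to 0.545 in TG, with a median of 0.495, and 1.15 to 1.56 in Sp5C, with a median of 1.47. The sum of the pair, however, was 16.7 ± 1.40 FPKM (SD, n = 6) in TG and 16.5 ± 2.33 (SD, n = 6) in Sp5C, and the ranges of the sum overlapped. The sum was described and not tested.

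**Figure D2:**
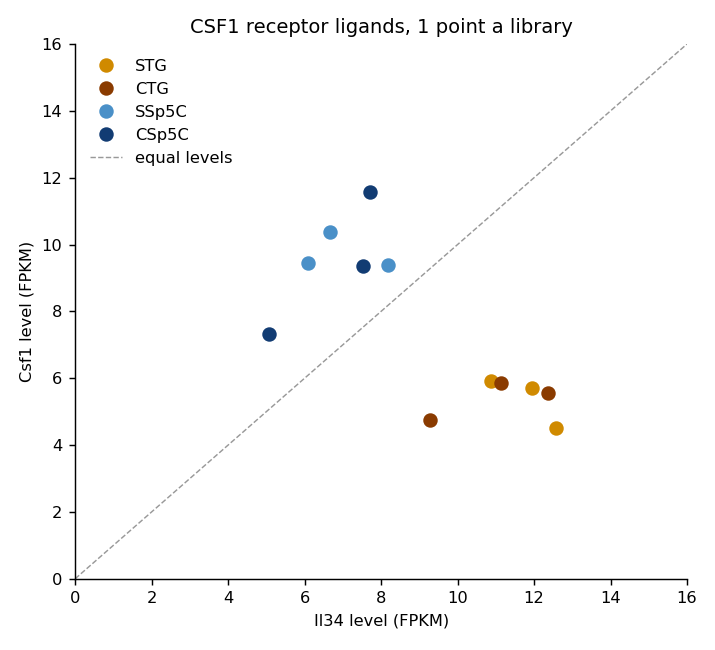
Csf1 level against Il34 level, both in FPKM on linear axes from 0, with 1 point a library coloured by group and a dashed line where both are equal. The 6 TG points lie below the line, with ratios of 0.359 to 0.545, and the 6 Sp5C points above it, with ratios of 1.15 to 1.56.

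The receptor Csf1r was at 11.6, 8.88 and 11.96 FPKM in STG, 11.4, 11.0 and 8.44 in CTG, 14.8, 16.3 and 14.9 in SSp5C, and 26.4, 14.4 and 10.46 in CSp5C. It passed as lower in TG (-0.53 ± 0.18, 95% interval -0.94 to -0.13, adjusted p = 0.0229), but CSp5C replicate 3 lay within the TG range. The call was lost without STG replicate 2 (adjusted p = 0.0544), without CTG replicate 3 (adjusted p = 0.0548) and among C libraries alone (adjusted p = 0.155). The 3 CSp5C libraries, 26.4, 14.4 and 10.46 FPKM of Csf1r, had 237, 144 and 90.9 as the summed level of the 19 microglia and macrophage markers, and Csf1 stood in the same order. Without CSp5C replicate 1 the tissue difference of Csf1r was -0.36 with an adjusted p of 0.0139.

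The 19 markers of microglia and macrophages summed to 124 to 177 in TG and 90.9 to 237 in Sp5C, none of them at 0 throughout a tissue. Of 17 tested, 4 were higher in TG, 4 were lower and 9 did not pass, where 36.2% of all genes were higher and 35% lower, so the list holds no larger share of calls than all genes do. Single markers are given as values. Sall1 was at 0.504 ± 0.213 in TG and 6.96 ± 0.846 in Sp5C (difference -2.41, adjusted p = 1.99e-09). Tmem119 (-1.46), P2ry12 (-1.32) and Siglech (-1.19) also passed as lower. Mrc1, a mannose receptor of border and tissue macrophages, was at 8.50 ± 0.775 in TG and 1.93 ± 1.36 in Sp5C (1.81, adjusted p = 6.90e-05). Fcrls, at 2.81 ± 0.665 in TG and 1.21 ± 0.807 in Sp5C, and Ptprc, at 4.74 ± 2.67 and 1.59 ± 1.03, also had higher means in TG. Of the 17 tested, the difference was above 0 for 10 and below 0 for 7, so the list went both ways. The complement genes C1qa, C1qb and C1qc did not pass. The part of cell composition in the differences of Cx3cr1, Csf1r and Ccr2 was not tested.

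Ccl2 and its receptor gene were both low, and both higher in TG. Ccl2 was at 1.34, 1.03 and 1.27 FPKM in STG, 0.989, 1.92 and 1.11 in CTG, 0.0438, 0.160 and 0.541 in SSp5C, and 0.230, 0.211 and 0 in CSp5C. The highest Sp5C library was below the lowest TG library. Its mean over 12 libraries was under the minimum of 1 FPKM, so it did not enter the main tissue test. With no minimum, the difference was 0.93 ± 0.12 (adjusted p = 6.76e-05). These levels stand for an estimated 21.7 to 45.9 fragments in a TG library and 0 to 12.2 in an Sp5C library.

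Ccr2 was at 1.39, 1.61 and 2.07 FPKM in STG, 4.05, 1.74 and 2.06 in CTG, 0.0644, 0.414 and 0.177 in SSp5C, and 0.749, 0.221 and 0.0427 in CSp5C. All TG libraries were above all Sp5C libraries, and the difference was 1.28 ± 0.17 (95% interval 0.90 to 1.66, adjusted p = 4.01e-05). The ratio of means was 7.75. The mean was 2.15 in TG and 0.278 in Sp5C, so Ccr2 reached the minimum of 1 FPKM only through TG. With no minimum, the adjusted p from limma was 8.88e-05. These levels stand for an estimated 127.7 to 344.5 fragments in a TG library and 4.7 to 83.6 in an Sp5C library. CTG replicate 1, the highest, was also the library with 935 FPKM of neutrophil and marrow markers, and it had 46.2 for 10 monocyte and dendritic cell markers against 12.9 to 24.3 in the other 11. Without it the mean of Ccr2 was under 1 FPKM and no test was made, but the other 5 TG libraries, 1.39 to 2.07, still lay above 0.749.

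Cxcr4, the receptor of CXCL12, was higher in TG without overlap, while Cxcl12 itself overlapped between the tissues. Cxcr4 was at 5.03, 5.42 and 6.62 FPKM in STG, 9.43, 5.202 and 6.91 in CTG, 0.930, 1.05 and 1.47 in SSp5C, and 1.25, 0.645 and 0.717 in CSp5C. The lowest TG library was above the highest Sp5C library, and the difference was 1.87 ± 0.13 (95% interval 1.58 to 2.17, adjusted p = 1.66e-07). The ratio of means was 6.36. Without CTG replicate 1, again the highest library, the difference was 1.78 with an adjusted p of 2.45e-07.

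Cxcl12 was at 26.7, 17.7 and 24.6 FPKM in STG, 28.8, 17.5 and 20.99 in CTG, 16.9, 20.3 and 20.4 in SSp5C, and 15.8, 16.5 and 16.6 in CSp5C. It was the highest of the 9 members in TG and, at 17.7 ± 2.05 (SD, n = 6), second to fractalkine in the mean of Sp5C. The tissues overlapped, and the difference of 0.32 ± 0.12 (95% interval 0.048 to 0.60, adjusted p = 0.0369) was lost without any of 8 single libraries, namely STG replicates 1 and 3, CTG replicates 1 and 3, SSp5C replicate 1 and each CSp5C replicate (adjusted p up to 0.0858), and within either the S or the C libraries. The ratio of Cxcl12 to Cxcr4 was 3.04 to 5.31 in TG and 12.6 to 25.6 in Sp5C.

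Of the 9 members, 8 entered the tissue test, and 4 were higher and 3 lower in TG. Of the 4, Ccr2 reached the minimum only through its TG level. Over all 13081 genes tested, 71.2% passed, 36.2% as higher and 35% as lower, so passing this test is common between these tissues. The groups did not overlap for 5 of the 8, against 53.7% of all genes. The median difference of the 8 was 0.26 and that of all genes 0.0093. Without each of the 12 libraries in turn, Cx3cl1, Csf1, Il34 and Cxcr4 passed in every fit, the highest adjusted p being 0.000696 for Il34. Without STG replicate 1 and CTG replicates 1 and 3 together, an alternative added after the marker sums were seen, those 4 passed (limma, adjusted p from 5.94e-09 to 0.0016) of 7 tested. Csf1r (-0.51, adjusted p = 0.133) and Cxcl12 (0.11, adjusted p = 0.400) did not pass there, and Ccr2 was under the minimum.

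**Figure D3:**
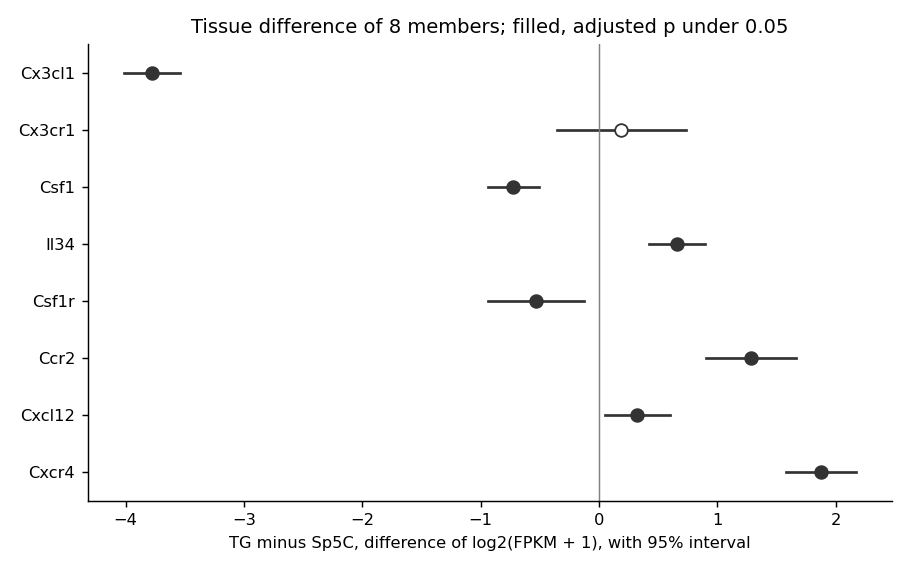
Difference of log2(FPKM + 1), TG minus Sp5C (horizontal axis), of the 8 members tested (vertical axis). Points are fitted differences, lines 95% intervals, and filled points have an adjusted p under 0.05. Cx3cl1 lies at -3.78 and Cxcr4 at 1.87, and the interval of Cx3cr1 alone crosses 0.

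Of the 3 Cxcl12 transcripts, alpha and beta were higher in TG, and gamma did not pass. Alpha, Cxcl12-202, was at 10.6, 6.44 and 10.8 FPKM in STG, 14.8, 7.44 and 7.88 in CTG, 3.35, 5.15 and 3.25 in SSp5C, and 5.82, 5.97 and 3.65 in CSp5C. All TG libraries were above all Sp5C libraries (0.93 ± 0.21, 95% interval 0.47 to 1.39, adjusted p = 0.00333). Beta, Cxcl12-203, was at 1.97, 1.99 and 1.58 in STG, 4.35, 1.25 and 1.97 in CTG, 0, 0.407 and 0.301 in SSp5C, and 0.404, 0.389 and 0 in CSp5C, with no overlap either (1.31 ± 0.21, 95% interval 0.83 to 1.78, adjusted p = 0.000425). Gamma, Cxcl12-201, was at 14.1, 9.29 and 12.2 in STG, 9.66, 8.85 and 11.1 in CTG, 13.5, 14.7 and 16.9 in SSp5C, and 9.52, 10.1 and 13.0 in CSp5C. Its difference had the opposite sign (-0.23 ± 0.11, 95% interval -0.48 to 0.027, adjusted p = 0.121).

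As shares of the gene, gamma made up 33.5% to 53.1% in TG and 60.5% to 82.6% in Sp5C, and beta 6.43% to 15.1% in TG and 0% to 2.57% in Sp5C, without overlap in either case. Alpha made up 41.9% ± 5.46 (SD, n = 6) in TG and 26.0% ± 8.72 (SD, n = 6) in Sp5C. CTG replicate 1 had the highest alpha and beta levels. Without it alpha still passed (0.79, adjusted p = 0.00499), as it did without all 3 libraries (0.72, adjusted p = 0.0437), while the mean of beta was under 1 FPKM and no test was made. The 3 transcripts share most of their coding sequence. How the authors divided reads among them, and with what error, is not given in the sources used here.

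Of the 2 Csf1 transcripts tested, the long-exon one was lower in TG. Csf1-201 was at 3.11, 1.82 and 2.22 FPKM in STG, 1.95, 1.37 and 1.71 in CTG, 3.27, 6.15 and 7.28 in SSp5C, and 3.95, 5.49 and 2.79 in CSp5C. It was lower in TG (-0.91 ± 0.19, 95% interval -1.34 to -0.48, adjusted p = 0.00262), although CSp5C replicate 3 lay under the highest TG library. Csf1-202, the surface form, was at 2.16, 2.49 and 2.56 in STG, 3.29, 3.72 and 2.77 in CTG, 6.35, 2.11 and 0.521 in SSp5C, and 6.76, 2.63 and 4.24 in CSp5C, and did not pass (-0.13 ± 0.34, 95% interval -0.89 to 0.63, adjusted p = 0.778). In Sp5C the share of Csf1-202 ran from 5.52% to 61.2% between libraries, while the gene's total ran only from 7.34 to 11.6 FPKM. A test of the difference between the 2 transcripts was not made.

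**Figure D4:**
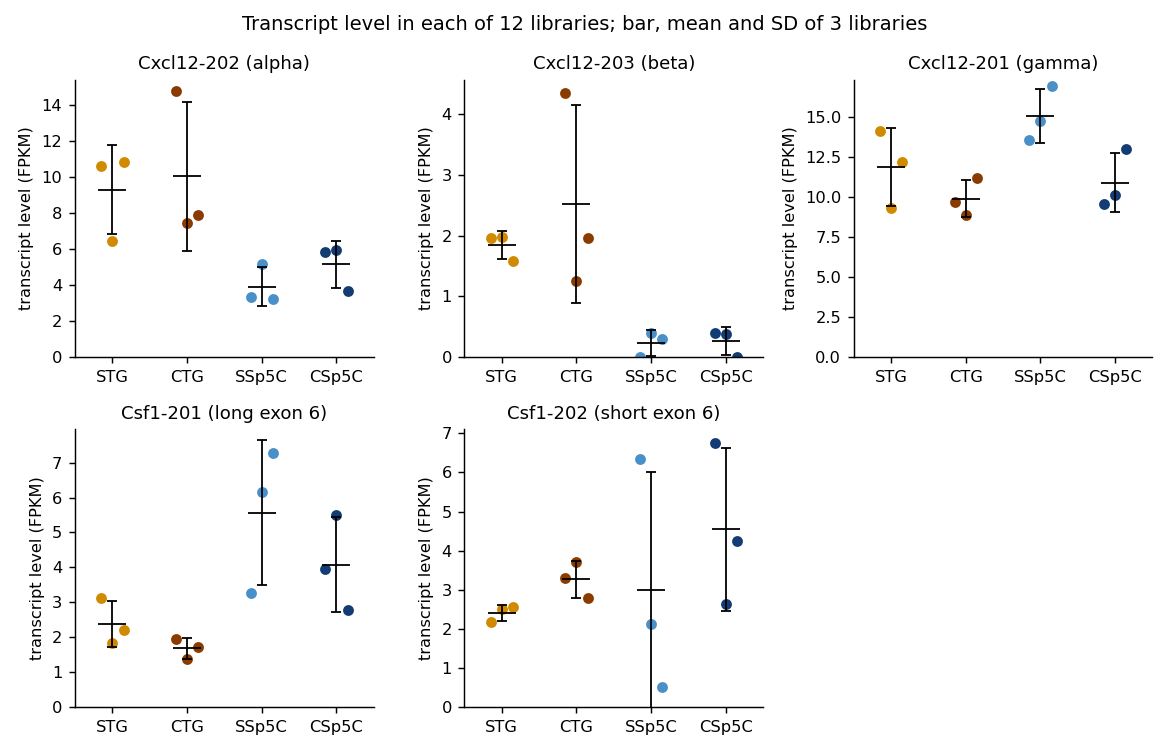
Transcript level in FPKM (vertical axis, from 0) of 3 Cxcl12 and 2 Csf1 transcripts in the 4 groups. Points are libraries, bars means and whiskers SDs of 3 libraries, and whiskers that reach below 0 end at the axis. Beta lies at 1.25 or above in TG and at 0.407 or below in Sp5C, and Csf1-202 spreads from 0.521 to 6.76 within Sp5C.

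Of the 26 transcripts, 10 had a mean of at least 1 FPKM and were tested between the tissues, where 4 were higher in TG and 2 lower, against 26.6% and 27% of 20082 transcripts, or 53.5% in all. The groups did not overlap for 5 of the 10, against 38.9% of all transcripts. Cxcl12-203 and Cxcr4-201 reached the minimum only through TG, with Sp5C means of 0.250 and 0.807 FPKM. The other calls were Cx3cl1-201 (-3.79), Cxcr4-201 (1.74, adjusted p = 2.60e-06) and Il34-201 (0.72, adjusted p = 0.00034). Csf1r-202 (-0.51, adjusted p = 0.0617) and Cx3cr1-201 (0.26, adjusted p = 0.41) did not pass. With a replicate block Csf1r-202 passed (adjusted p = 0.0146). It also passed without CSp5C replicate 3 (-0.68, adjusted p = 0.00656), and Cx3cr1-201 without STG replicate 3 (0.47, adjusted p = 0.0482). With the S libraries only, Il34-201 (adjusted p = 0.0571) and Csf1-201 (adjusted p = 0.0515) missed the threshold, as did Cxcl12-202 with the C libraries only (adjusted p = 0.0875). With a block in the C libraries, added after the data were seen, Csf1-201 missed it as well (-0.89, adjusted p = 0.0623). The remaining 16 transcripts had means of 0.0189 to 0.765 FPKM, among them all 4 of Ccr2 and the 1 of Ccl2.

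No member passed the test between C and S libraries in either tissue. In TG all 9 were tested and none passed, where 0.00775% of 12906 genes passed (limma). One member, Cx3cr1, had an unadjusted p under 0.05, as did 4.7% of all genes. Its 3 CTG libraries, 0.615 to 0.985 FPKM, lay below its 3 STG libraries, 1.54 to 6.07, and this was 1 of 9 members without overlap, against 10.8% of all genes. The mean was 4.28 ± 2.41 (SD, n = 3) in STG and 0.855 ± 0.208 (SD, n = 3) in CTG, a ratio of 4.999, and the difference was -1.38 ± 0.39 (95% interval -2.32 to -0.44, limma, adjusted p = 0.960).

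The Cx3cr1 difference in TG kept its sign without each of the 6 libraries in turn, from -1.84 to -1.10, with adjusted p-values from limma of 0.123 to 0.9999. Without STG replicate 1, the library with pituitary genes, it was -1.10, and without STG replicate 3 it was -1.84. Without the 3 libraries with marrow or pituitary markers, which leaves 1 CTG library that is assumed to vary like the other groups, it was -1.001 and did not pass either. The 19 microglia and macrophage markers summed to 165, 124 and 156 in STG and to 177, 157 and 132 in CTG. Of the 15 tested, none passed, and their median difference was 0.16. As a ratio to Csf1r in the same library, Cx3cr1 was at 0.129 to 0.588 in STG, 0.0729 to 0.0893 in CTG, 0.112 to 0.125 in SSp5C and 0.0765 to 0.0962 in CSp5C. The ranges of CTG and CSp5C overlapped, and both lay below that of SSp5C. In SSp5C, however, Cx3cr1-203 made up 18.7% to 28.1% of the gene, against 0% to 3.88% in CSp5C. For Cx3cr1-201 alone, CSp5C minus SSp5C was 0.034 with overlap, against -0.18 for the gene. Ratios to Csf1r were not formed by transcript, so the place of SSp5C may rest on Cx3cr1-203. In TG, Cx3cr1-201 carried most of the Cx3cr1 level, at 5.83, 4.24 and 1.51 in STG and 0.958, 0.981 and 0.615 in CTG. Cx3cr1-202 was listed above 0 in 2 of the 12 libraries, STG replicates 1 and 2, at 0.236 and 0.973.

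For the other members in TG, single-gene intervals are given, with the libraries with marrow or pituitary markers included. Replicates may be technical, so the intervals do not bound an effect between animals. On this scale they also understate fold changes of low genes such as Ccl2. Csf1 was at 5.39 ± 0.755 in STG and 5.38 ± 0.578 in CTG (SD, n = 3 each), with a 95% interval of the difference of -0.27 to 0.28. That of Il34 was -0.36 to 0.15, that of Csf1r -0.41 to 0.28, that of Cx3cl1 -0.58 to 0.34 and that of Ccl2 -0.34 to 0.47. Cxcl12 had -0.57 to 0.48. The widest after Cx3cr1 was Ccr2, with -0.19 to 0.95 around 0.38. For Ccr2 and for Cxcr4 (0.27, interval -0.20 to 0.73) the highest CTG library was replicate 1, with the marrow markers. Without it Ccr2 was at 0.11 and Cxcr4 at 0.074. The part of marrow cells in these values was not tested.

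In Sp5C, 7 members were tested between CSp5C and SSp5C and none passed, where 0.0315% of 12690 genes passed (limma). Cxcl12 was the 1 member with an unadjusted p under 0.05, as were 5.02% of all genes, and the 1 member without overlap, against 10.9%. It was at 15.8 to 16.6 FPKM in CSp5C and 16.9 to 20.4 in SSp5C (-0.22 ± 0.082, 95% interval -0.41 to -0.025, limma, adjusted p = 0.931). By transcript, gamma was at 9.52 to 13.0 in CSp5C and 13.5 to 16.9 in SSp5C (-0.44, limma, adjusted p = 0.944), while alpha was 0.32 higher in CSp5C with overlap. Cx3cl1 had the narrowest interval of any member, -0.20 to 0.11. Csf1r had the widest, -0.70 to 0.81, with CSp5C replicate 1 at 26.4 FPKM. Ccl2 and Ccr2 were under the minimum there.

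**Figure D5:**
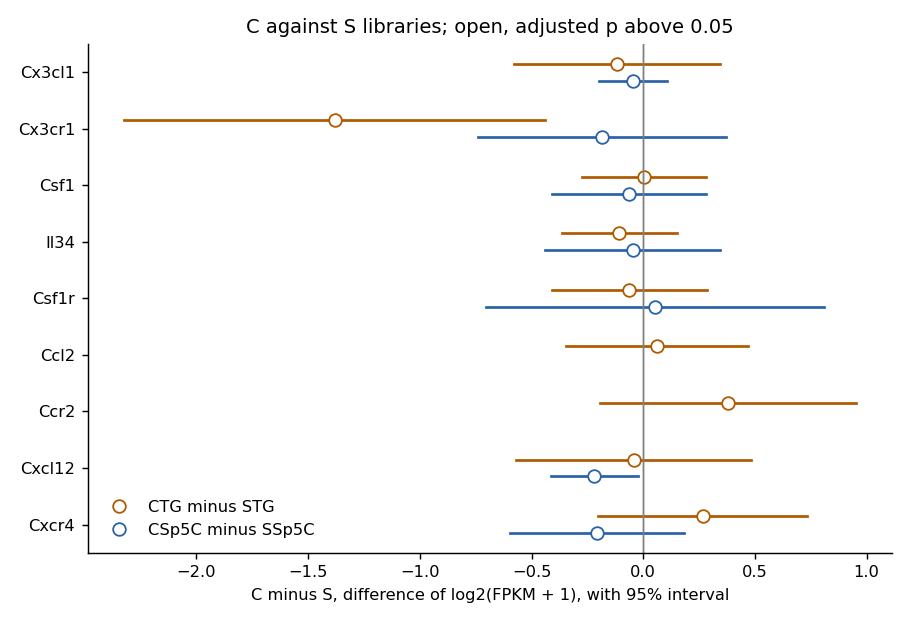
Difference of log2(FPKM + 1), C minus S (horizontal axis), of each member (vertical axis) in TG and in Sp5C. Points are fitted differences and lines 95% intervals, all with an adjusted p above 0.05. Cx3cr1 in TG lies at -1.38 and Cxcl12 in Sp5C at -0.22, and Ccl2 and Ccr2 have no Sp5C value.

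At the transcript level no member passed between C and S in either tissue, where 0.0613% of transcripts passed in TG and 0.0206% in Sp5C. Besides those given above, Csf1-202 in TG (0.32, limma, adjusted p = 0.951) and Il34-201 in Sp5C (-0.30, limma, adjusted p = 0.944) had unadjusted p-values under 0.05. The share of all transcripts with such p-values is not given here, so no excess can be read. Il34-204 was at 2.18, 1.97 and 0.0237 FPKM in CSp5C and at 0.00231, 0.236 and 0.0599 in SSp5C. The Il34 gene level differed by only -0.048, so the division of reads between its transcripts matters here. The C minus S effect itself was compared between the tissues for 8 members. None passed, as none (0%) of 13081 genes did, and 1 had an unadjusted p under 0.05, against 5.41% of all genes. That was Cx3cr1, with an effect in TG lower than that in Sp5C by -1.20 (95% interval -2.29 to -0.11, limma, adjusted p = 0.887).

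Other genes of these pathways were read from 6 lists. Of 33 other chemokine ligands, 13 were tested, and 8 were higher and 3 lower in TG, where 36.2% and 35% of all genes were (median difference 0.86, against 0.0093 over all genes). Cxcl14, a chemokine of epithelia and some neurons, was at 1.597 ± 1.94 in TG and 24.1 ± 1.88 in Sp5C (-3.50, adjusted p = 2.84e-06). Higher in TG were Ccl11, or eotaxin, at 5.07 ± 0.480 and 0.0947 ± 0.0724 (2.47, adjusted p = 9.36e-11), Ccl8 (1.87) and Ccl21a (1.71), a member of a family of near-identical copies whose reads may be split. Of 20 other chemokine receptors only 2 reached 1 FPKM. Ackr1, a receptor that binds chemokines without signalling, was at 44.3 ± 7.38 in TG and 19.6 ± 2.05 in Sp5C (1.13, adjusted p = 4.24e-06). Ackr3, which also binds CXCL12, was at 2.23 ± 0.313 and 2.70 ± 0.304 (-0.20, adjusted p = 0.0532).

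Genes that process or bind the ligands included 5 higher and 2 lower in TG of 9 tested (median 0.45), against 36.2% and 35% of all genes. Adam10, a protease that sheds fractalkine from the membrane, was at 70.6 ± 8.87 in TG and 23.0 ± 1.65 in Sp5C (1.57, adjusted p = 8.17e-09), opposite in direction to fractalkine. Cd74, which serves MHC class II, was at 52.4 ± 13.4 and 8.36 ± 8.00 (2.86), Mmp2, a matrix protease that also cuts CXCL12, at 16.9 ± 4.34 and 1.91 ± 0.731 (2.63), and the syndecan Sdc1 at 4.67 ± 1.09 and 0.830 ± 0.335 (1.63). The 2 that were lower, named after their values were seen, were Ptprz1 (-1.08), a receptor phosphatase that binds interleukin 34, and Ctss (-0.95), a protease of microglia that releases fractalkine, at 19.6 ± 5.34 in TG and 41.5 ± 22.0 in Sp5C.

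Of 14 genes of CSF1R signalling and macrophage transcription factors, 13 were tested. In TG 4 were higher and 1 was lower (median 0.26), against 36.2% and 35% of all genes. Runx1, a transcription factor of blood cells that some sensory neurons also use, was at 16.5 ± 1.11 in TG and 0.834 ± 0.339 in Sp5C (3.27, adjusted p = 2.88e-10). The kinase Syk (0.69) and the phosphatase Ptpn6 (0.65) were also higher. Of 12 genes of chemokine receptor signalling, 11 were tested, 8 were higher and 1 was lower (median 0.49), against 36.2% and 35% of all genes. The kinase Ptk2b (1.18), the GTPase Rac2 (0.82), the G protein Gnai3 (0.79) and the regulator Rgs10 (0.63) had the largest differences of those called. Of 11 other colony stimulating factors and receptors, 7 were tested, 3 were higher and 1 was lower (median 0.15), against 36.2% and 35% of all genes. Stem cell factor, Kitl, was at 22.0 ± 1.74 in TG and 8.10 ± 0.694 in Sp5C (1.34, adjusted p = 4.90e-09). Flt3l (0.93) and Csf2rb (0.67) were higher, and Flt3 (-0.45) was lower. No gene of these 6 lists passed between C and S in either tissue.

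Within the groups some members varied together. Over the 12 libraries, the deviations of log2(FPKM + 1) from the group means had a Pearson r of 0.92 between Csf1 and Csf1r, 0.89 between Cx3cl1 and Cxcl12 and 0.84 between Ccr2 and Cxcr4, the highest of the pairs compared. Il34 and Csf1r had 0.63, and Cx3cl1 and Cx3cr1 had 0.12. These values describe 12 points that share libraries, and for Ccr2 and Cxcr4 the highest point was CTG replicate 1. The genes most like Csf1r by the same measure, the best 3 of 9195 with a mean of at least 5 FPKM, were C1qc (0.98), Unc93b1 (0.97) and C1qa (0.96), and those most like Csf1 were Pla2g15 (0.96), C1qa (0.94) and C1qb (0.94). Those most like Cx3cr1 were U2surp (0.95), Ifit3b (0.95) and Nr3c1 (0.93).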

How the data were processed

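Ribosomal RNA was removed and strand-marking libraries were made, per the labels' protocols, and the series' text names an Illumina GAIIx. The submitters' processing notes name HISAT2, StringTie 1.3.1 and Cuffdiff 2.1.1 without their roles. For the genome build and the annotation, the sources used here give no name. Deposited values are FPKM per transcript, made by the authors. They were summed per gene. Transcript names, coordinates and sequences come from GENCODE M21 (GRCm38).

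Of log2(FPKM + 1), genes or transcripts with a mean of at least 1 FPKM over the libraries fitted were tested with limma 3.58.1 (R 4.3.3), with trend and robust settings, two-sided, with Benjamini-Hochberg adjustment over all features tested and a threshold of 0.05. Fold changes on this scale understate those of low genes. The minimum was taken over the libraries fitted, so a gene could enter the tissue test through a single tissue. The tissue comparison and the comparison of C minus S effects used all 12 libraries, and each C minus S comparison the 6 of its tissue. Only 31.4% to 38.1% of low values were whole fragments within 0.02, so no count test was made. The fits were tested on simulated data.

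The members and lists were chosen with earlier results of these data known. Members are always named. Of each pathway list, up to 4 called genes with the largest tissue difference are named, except 1 gene that is not reported here, and by likeness the 3 genes of highest r, here for 3 members. Alternatives were pseudocount, filter, scaling, limma settings, a replicate block, S or C libraries only, and leaving out libraries. Same-numbered libraries of CTG and CSp5C deviated together from their group means (r of 0.333, 0.228 and 0.383, and below 0 for each other pairing). In the C libraries the numbers may therefore pair the samples, but no label says so. The deviations of 3 libraries from their own mean are not independent, so these values cannot settle whether samples are paired. Same-numbered libraries of the other 3 pairs of groups did not all deviate together. The table of annotated noncoding transcripts was searched for any within 10 kb of a member, and the table of assembled ones gives no value here.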

Additional observations from a re-analysis of the deposited data

Results flagged for a closer look

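Of 18 groups of 6 libraries (9 members in each of 2 tissues), 3 held a library whose gap to the nearest other library was over 0.625 of the group's range. Chance gives about 1 in 20 for independent draws from a single normal distribution. These groups mix S and C libraries and some members vary together, so no excess over that rate can be read. Ccl2 passed only narrowly, at 0.6252. Csf1r in Sp5C was at 26.3591 FPKM in CSp5C replicate 1, the next library being at 16.3183, and that library also had the highest sum of microglia and macrophage markers. Ccr2 in TG was at 4.0481 FPKM in CTG replicate 1, the next at 2.069, in the library with 935 FPKM of neutrophil and marrow markers. Ccl2 in TG was at 1.9214 FPKM in CTG replicate 2, the next at 1.3381, and that library had 14.5 FPKM of the marrow markers. Whether marrow or macrophage content plays a part in these values was not tested.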

How the results depend on the processing

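Outside the CTG and CSp5C pairs, which deviated together, same-numbered libraries correlated in their deviations from group means at 0.089, 0.191 and -0.151 between STG and CTG, at -0.127, 0.066 and 0.103 between SSp5C and CSp5C, and at -0.080, -0.197 and -0.023 between STG and SSp5C. With a replicate block, 7 members were called between the tissues, none (0) in the other gene comparisons, and 7 transcripts against 6 without it, the added one being Csf1r-202. In the C libraries with a block, an alternative added after the data were seen, 5 members and 4 transcripts were called, against 5 and 5 in the C libraries without it. Apart from Csf1r-202 and, in the C libraries, Csf1-201, the block changed no call of a member. Without 3 libraries with marrow or pituitary markers, 4 members were called between the tissues against 7, since Ccr2 was under the minimum and Csf1r and Cxcl12 did not pass. With no filter 14 member transcripts were called and with a minimum of 5 FPKM 3, since more or fewer were tested. Leaving out each library gave 5 to 7 members and 5 to 7 transcripts called. Among C libraries only, the tissue difference of Cx3cr1 was -0.41 and that of Cx3cr1-201 -0.40, with and without the block, and among S libraries only that of Csf1-202 was 0.059, each of opposite sign to the reported value. None of them passed, and the cause was not tested. Without the 3 libraries with marrow or pituitary markers, the C minus S difference in TG turned its sign for Csf1r (0.088), Il34 (0.011) and Cxcr4 (-0.17), and the difference of C minus S effects between the tissues for Csf1r (0.034), Il34 (0.058) and Cxcl12 (-0.021). Leaving out single libraries, the C minus S difference in TG ran across 0 for Csf1 (-0.099 to 0.077), Csf1r (-0.19 to 0.061), Cx3cl1 (-0.26 to 0.051), Ccl2 (-0.11 to 0.17) and Cxcl12 (-0.23 to 0.11). In Sp5C it did so for Csf1 (-0.21 to 0.088), Csf1r (-0.29 to 0.33), Il34 (-0.14 to 0.12), Cx3cl1 (-0.083 to 0.0057) and Cx3cr1 (-0.45 to 0.039). The difference of the effects between the tissues did so for Csf1 (-0.086 to 0.21), Csf1r (-0.40 to 0.23), Il34 (-0.23 to 0.043), Cx3cl1 (-0.21 to 0.096) and Cxcl12 (-0.011 to 0.33), and the tissue difference of Csf1-202 ran from -0.40 to 0.16. None of these passed in any fit. Changing the pseudocount, the filter, the scaling or the limma settings turned the direction of no member between the tissues. Levels are FPKM without counts, so counting error can only be estimated, and it limits Ccl2 and Ccr2 in Sp5C most.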

Other observations

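Of 2789 annotated noncoding transcripts, 0 lay within 10 kb of a member by the GENCODE M21 positions, which were found for 2301 of their 2315 genes. RefSeq promoters (GRCm38.p6, 250 bases before to 50 after the start) were at hand for 6 members, Ccr2, Csf1, Cx3cl1, Cx3cr1, Cxcl12 and Cxcr4. GAGGAA, the core bound by the macrophage factor PU.1, was found on either strand in 1 of the 6, that of Cx3cl1, and in 28.28% of 32851 promoters. GGAAAN, which holds the core of NFAT sites, was found in 4 of the 6 and in 61.24% of all. A match is a description of the letters only.

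The genes that varied most like the remaining members within groups were, for Cx3cl1, Tceal9 (r = 0.97), Ssrp1 (0.97) and Nasp (0.96), for Il34, Tesk2 (0.92), Lum (0.91) and Npc1 (0.91), and for Cxcl12, Gm6793 (0.97), Top3b (0.97) and Yipf5 (0.95). For Ccr2 they were Cirbp (0.97), Spcs3 (0.96) and Mmp14 (0.96), and for Cxcr4 Mrps33 (0.90), Ddx3y (0.89) and Rgs5 (0.88), in each case over the 12 libraries.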
